A study of Mus musculus with 48 samples.

Results

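The NF-kB subunits and their inhibitors are described here by 10 genes taken by name from the count tables: the subunit genes Nfkb1, Nfkb2, Rel, Rela and Relb, and the regulator genes Nfkbia, Nfkbib, Nfkbiz, Tnfaip3 and Bcl3. They are 10 of the 50764 gene rows in each of the 4 tables, and all 10 passed the filter on low counts in every line. RNA was read from 48 libraries of primary cells of 4 mouse lines, each heterozygous for a BERKY3 allele, a biosensor for 1 active G protein alpha subunit that needs Cre to be expressed. The Gas*-BERKY3 line gave astrocytes from brain, and the Gai*-BERKY3, Gaq*-BERKY3 and Ga13*-BERKY3 lines gave lung fibroblasts. Cells of every group, controls included, carried the allele and received an adeno-associated virus, AAV2/1-CMV-Cre (sensor on) or AAV2/1-CMV-empty (sensor off), at a dilution of 1 in 500 (astrocytes) or 1 in 1000 (fibroblasts). Fresh medium without agonist (unstimulated) or with agonist (stimulated) followed for 90 min, which was 1 µM isoproterenol, a beta-adrenergic agonist, for astrocytes and 100 µM TRAP-6, a peptide agonist of PAR1, for fibroblasts. The 4 combinations in 4 lines make 16 groups of 3 libraries. Since nothing but a number tells replicates apart in the labels, p-values speak for the spread among these libraries, which may be technical, and the number of mice behind a line is not given in the sources used here. Agonist, cell type, tissue and line change together between astrocytes and fibroblasts and cannot be told apart, and neither can Cre and the biosensor it switches on.

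NF-kB is a family of transcription factors that work as dimers and are held in the cytoplasm of resting cells by inhibitor proteins of the IkB family. Receptors for cytokines such as TNF and IL-1 activate the IKK kinases, which mark the inhibitors for destruction and so let the dimers enter the nucleus, where they turn on inflammatory genes and also the genes of their own inhibitors. In astrocytes and fibroblasts the pathway is best known for the response to injury and inflammation.

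In the astrocytes isoproterenol raised the precursor subunit genes Nfkb1 and Nfkb2 and the nuclear cofactor gene Bcl3, and lowered Nfkbiz and Tnfaip3. In the Gaq and Ga13 fibroblasts TRAP-6 raised Nfkbiz and Tnfaip3, the genes that fell in astrocytes, and in Ga13 also Nfkbia, in the mean of both viruses. With empty virus alone the main fit called no member in Gaq and only Tnfaip3 in Ga13. In the Gai fibroblasts no member passed the test, with or without 4 libraries that stood apart. In no line did the main edgeR fit call a member between Cre and empty virus, though some other fits did in unstimulated Gaq cells.

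Levels are given as CPM, a gene's count scaled to the total count of its library, and differences as log2 changes from edgeR with the standard error (SE), after TMM scaling. A gene is called where its Benjamini-Hochberg adjusted p over all genes tested is under 0.05. Where single groups of 3 libraries are said not to overlap, the share of all genes that separate so was not computed. Such a separation is a description only. Total counts ran from 15606007 to 42564149 per library, and the lowest count of a member in any library was 32, for Bcl3 in astrocytes. The sensor transcript was at 0 to 1.05 CPM in the 24 empty virus libraries and at 19.1 to 137 CPM in the 24 Cre libraries. The summed astrocyte markers held 8599 to 9437 CPM in the astrocyte libraries and 96.1 to 166 CPM in the fibroblasts, with Aqp4 at 0 in Gai and Gaq, and all 8 fibroblast markers averaged over 1 CPM in every line, with sums of 27565 to 48156 CPM in fibroblasts and 1643 to 2058 CPM in astrocytes. The astrocyte libraries also held markers of the oligodendrocyte lineage (678 to 855 CPM) and of neurons (431 to 471 CPM), and the fibroblast libraries mesothelial markers (357 to 556 CPM). The 11 microglia and macrophage markers, cells rich in NF-kB transcripts, summed to 208 to 229 CPM in unstimulated and 213 to 233 CPM in stimulated astrocytes. In fibroblasts they differed between lines, at 161 to 223 CPM in Gai, 71.8 to 94.8 CPM in Gaq and 37.3 to 52.5 CPM in Ga13. In such bulk RNA fewer cells of a type and less RNA per cell cannot be told apart.

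Replicate 1 of all 4 Gai groups stood apart from replicates 2 and 3. Between libraries of a Gai group, chi-square per degree of freedom over genes was 9.71 to 19.3 in pairs with replicate 1 and 2.99 to 3.44 in the other pairs, where 1 is sampling noise, and the highest value in the other lines was 9.24. The biological coefficient of variation of the Gai line was 0.0911 with all 12 libraries and 0.0483 with replicates 2 and 3 only, beside 0.0649 to 0.0686 in the other lines. The 4 libraries also held more of the fibroblast markers (38960 to 41301 CPM, against 27565 to 32374 CPM in the other Gai libraries), of the microglia and macrophage markers (196 to 223 against 161 to 189.5 CPM) and of the oligodendrocyte lineage markers (44.3 to 54.6 against 34.9 to 39.8 CPM). Results that rest on Gai are given with all 12 libraries and, as a fit added after the data were seen, without these 4. What set them apart was not tested.

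Of the 6 members called in an agonist response, 4 have a promoter entry in RefSeq (GRCm38.p6), and their sequences are shown because these genes are known NF-kB targets. Nfkb2 and Bcl3 were called higher in astrocytes and Nfkbia higher in Ga13. Tnfaip3 was called lower in astrocytes and higher in Gaq and Ga13. Each line gives 170 bases before and 20 bases from the annotated start, 5′ to 3′ on the gene's own strand, and capitals mark matches to the 10-base NF-kB consensus on either strand, with overlapping matches run together. They lie at chr19:46304567-46304756 (plus strand, Nfkb2), chr12:55492628-55492817 (minus, Nfkbia), chr10:19015391-19015580 (minus, Tnfaip3) and chr7:19822736-19822925 (minus, Bcl3).
Nfkb2: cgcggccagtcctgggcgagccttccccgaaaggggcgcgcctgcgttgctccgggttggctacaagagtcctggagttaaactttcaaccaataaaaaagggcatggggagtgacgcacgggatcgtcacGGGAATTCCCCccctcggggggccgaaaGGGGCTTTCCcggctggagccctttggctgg
Nfkbia: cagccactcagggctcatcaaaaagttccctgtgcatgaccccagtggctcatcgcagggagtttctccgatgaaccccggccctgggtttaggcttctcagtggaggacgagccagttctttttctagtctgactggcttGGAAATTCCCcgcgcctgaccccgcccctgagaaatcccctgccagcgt
Tnfaip3: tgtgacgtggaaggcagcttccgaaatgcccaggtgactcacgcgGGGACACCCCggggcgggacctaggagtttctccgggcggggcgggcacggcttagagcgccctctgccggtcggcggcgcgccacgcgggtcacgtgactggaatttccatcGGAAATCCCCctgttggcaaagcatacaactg
Bcl3: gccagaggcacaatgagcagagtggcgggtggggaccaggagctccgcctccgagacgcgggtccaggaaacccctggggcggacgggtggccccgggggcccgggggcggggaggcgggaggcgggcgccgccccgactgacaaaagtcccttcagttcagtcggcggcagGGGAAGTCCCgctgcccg
Over the full windows of 300 bases, 5 of the 7 members with an entry (Nfkb2, Rel, Nfkbia, Tnfaip3 and Bcl3) held the consensus. Some genes have several annotated starts, and the 7 members have 10 windows (3 for Nfkb2, 2 for Tnfaip3), of which 7 held it, against 4.51% of 32851 promoter windows of that length. The windows of Nfkb2 starts 2 and 3 overlap and share the site GGGACTTTCC, the only match for start 3. The 7 windows are therefore not independent. The sequences above are those of the first start listed. Rela and Nfkbib held none, and Nfkb1, Relb and Nfkbiz have no entry. TGACG, the core of the cAMP response element, was found on either strand in 5 of the 10 windows (of Nfkb2, Rel, Nfkbib and Tnfaip3), against 20.8% of all windows, and TGANTCA, the AP-1 site, in 2 of the 10 (of Nfkb2 and Tnfaip3), against 7.81%. No TGACG match can lie inside a TGANTCA match. A match is a string of letters and shows no binding.

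Per kilobase of exon (GENCODE M21 models), Rela, the main activating subunit, had the highest level of the 10 genes in the unstimulated empty virus group of every line. It stood at 29.3 ± 0.583 CPM per kb (SD, n = 3) in astrocytes, 26.9 ± 2.53 in Gai, 35.5 ± 1.88 in Gaq and 32.2 ± 0.845 in Ga13. At the other end of the per-length order stood Tnfaip3 in astrocytes, at 0.971 ± 0.118 CPM per kb, and Rel in the 3 fibroblast lines, at 2.08 ± 0.115 to 2.57 ± 0.107 CPM per kb. Rela and Rel also varied least over the 16 groups: the highest group mean was 1.32 times the lowest for Rela (Gaq unstimulated empty virus over Gai unstimulated empty virus) and 1.40 times for Rel. The widest spans belonged to regulators. Tnfaip3 ran 7.36-fold, from 4.64 ± 0.227 CPM (SD, n = 3) in stimulated astrocytes with empty virus to 34.2 ± 3.21 CPM in stimulated Gaq fibroblasts with Cre. Nfkbiz ran 5.73-fold, from 19.7 ± 2.17 CPM in stimulated astrocytes with Cre to 113 ± 5.51 CPM in stimulated Gai fibroblasts with Cre. Bcl3 ran 5.37-fold, from 2.82 ± 1.31 CPM in unstimulated astrocytes with empty virus to 15.2 ± 2.96 CPM in unstimulated Gai fibroblasts with Cre, where replicate 1 held 18.4 CPM and the others 12.6 and 14.4 CPM. For these 3 genes and Nfkb2 every astrocyte library stood below every fibroblast library in CPM, and for Nfkbia every one stood above. The share of all genes that separate in this way was not computed. At rest 43.1% of genes were called higher and 36.9% lower in astrocytes, so such a separation says little by itself. Among the 15 pairs of neighbouring groups in each gene's order, the libraries overlapped in all pairs for Rel and in all but 1 to 3 pairs for the other 9 genes. The groups were first sorted by their means, so neighbours are close by construction and their overlap tests no difference. The same count over all genes was not computed, and the order is a description only. The plot of levels in the 48 libraries shows each value.

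**Figure D1:**
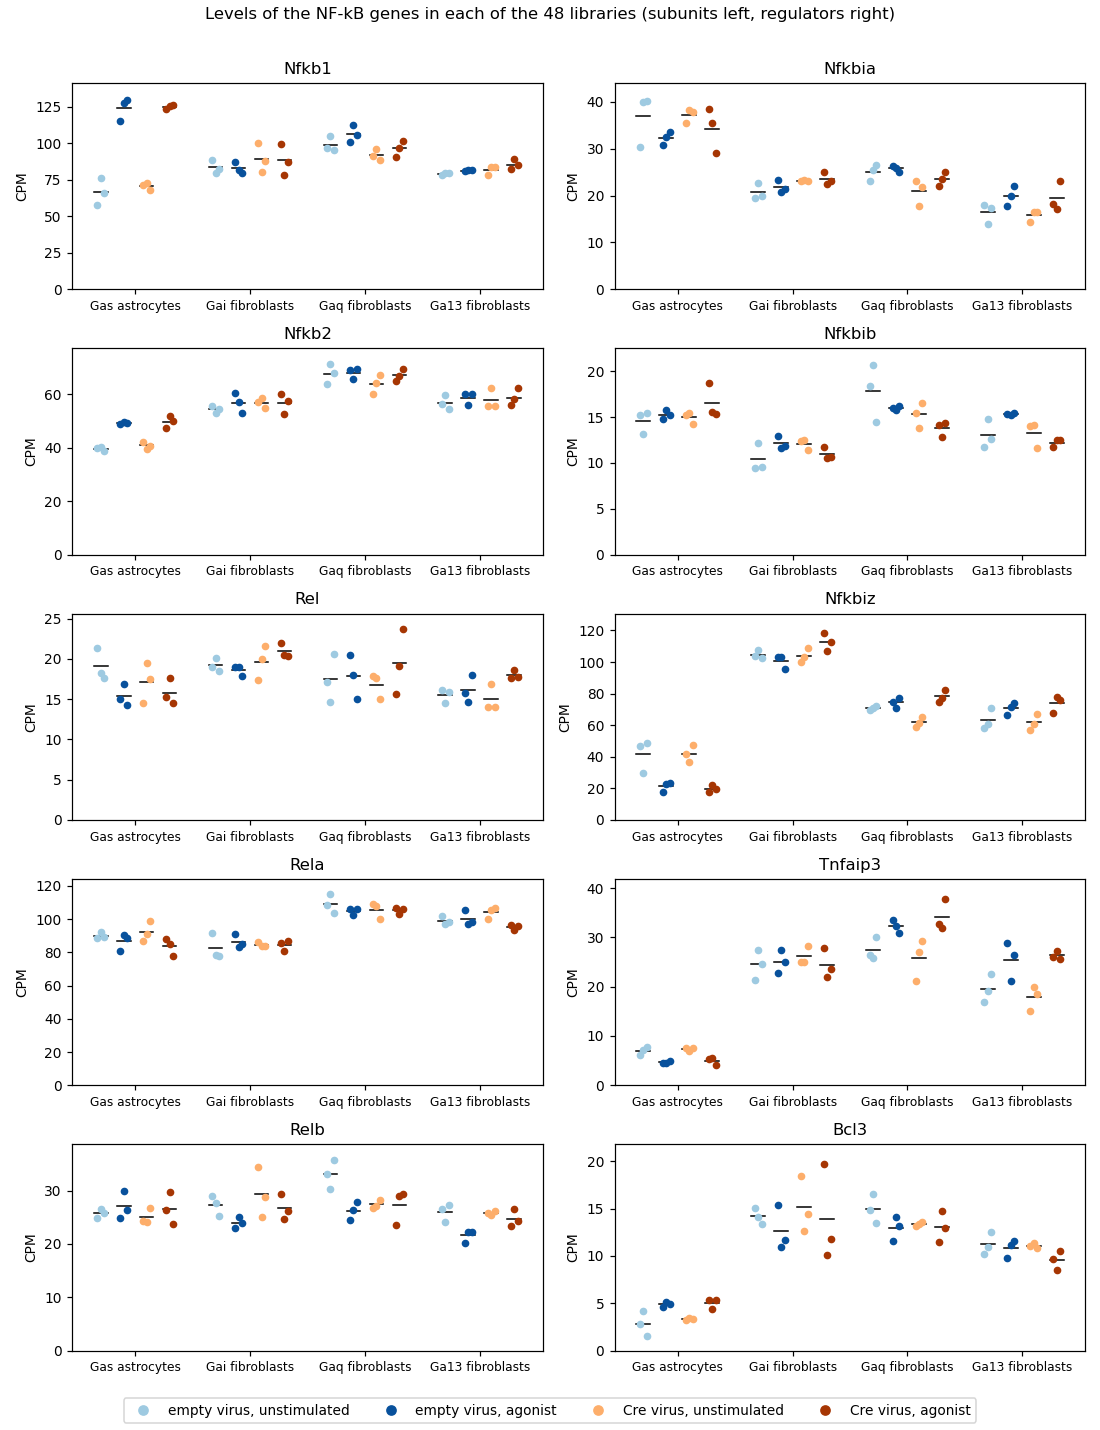
Level of each gene in CPM (vertical axis, from 0) in every library, grouped by line (horizontal axis), with 1 point per library coloured by virus and stimulation and a bar at each group's mean of 3. Nfkb1 and Nfkb2 separate by isoproterenol in Gas astrocytes, Nfkb2, Nfkbiz, Tnfaip3 and Bcl3 are lower in all astrocyte libraries than in all fibroblast libraries, and Rela and Rel span 1.32-fold and 1.40-fold over the 16 group means. The share of all genes that separate the cell types in this way was not computed.

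Isoproterenol in astrocytes changed 5 of the 10 members in the mean of both viruses, 3 higher and 2 lower, where 11.7% of the 18103 genes tested were higher and 11.5% lower. The members' median log2 change was 0.04, beside 0.00 for all genes. Nfkb1 encodes p105, the precursor of the p50 subunit. Its libraries held 57.6, 75.9 and 66.3 CPM unstimulated and 115, 127 and 129.8 CPM stimulated with empty virus, and 71.3, 72.9 and 68.1 CPM and 123, 125 and 126 CPM with Cre. All 6 stimulated libraries stood above all 6 unstimulated ones, and the mean log2 change was 0.91 ± 0.05 (edgeR adjusted p = 1.61e-16), a 1.88-fold rise. Nfkb2 encodes p100, the precursor of the p52 subunit of the non-canonical pathway. It rose from 39.9, 40.1 and 38.9 CPM to 48.8, 49.8 and 49.4 CPM with empty virus and from 42.3, 39.5 and 40.8 CPM to 47.4, 51.7 and 50.1 CPM with Cre, again without overlap, by 0.35 ± 0.05 on the log2 scale (edgeR adjusted p = 2.14e-07). Nfkb2 overlaps Psd on the opposite strand, so reads of both genes may be mixed.

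The 3 subunits that carry their own activation domain did not pass the test in astrocytes. Rela held 87.00 to 99.1 CPM unstimulated and 77.5 to 90.7 CPM stimulated (-0.05 ± 0.04, edgeR adjusted p = 0.495), and its libraries overlapped. Relb, the partner of p52, held 24.2 to 26.7 CPM unstimulated and 23.8 to 29.9 CPM stimulated (0.13 ± 0.06, edgeR adjusted p = 0.148). Rel held 14.5 to 21.4 CPM unstimulated and 14.3 to 17.6 CPM stimulated (-0.17 ± 0.08, edgeR adjusted p = 0.123), with the groups apart for empty virus and overlapping for Cre. Its adjusted p was 0.0348 when libraries were scaled by their totals without TMM, and 0.0403 without replicate 1 of the unstimulated Cre group.

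Among the regulators, Bcl3 encodes a nuclear IkB-like protein that binds p50 and p52 dimers. Its libraries held 2.78, 4.15 and 1.53 CPM unstimulated and 4.62, 5.12 and 4.88 CPM stimulated with empty virus. With Cre the values were 3.19, 3.43 and 3.35 CPM and 5.38, 4.38 and 5.37 CPM. All stimulated libraries again stood above all unstimulated ones, and the mean change was 0.75 ± 0.16 (edgeR adjusted p = 0.000348). Bcl3 overlaps the gene model Gm16174 on the opposite strand. Nfkbiz encodes IkB-zeta, another nuclear cofactor, which is needed for a set of secondary inflammatory genes. It fell from 46.9, 29.8 and 48.8 CPM to 17.8, 22.7 and 23.1 CPM with empty virus and from 41.8, 36.99 and 47.2 CPM to 17.6, 21.9 and 19.6 CPM with Cre. Every stimulated library stood below every unstimulated one, and the mean log2 change was -0.98 ± 0.14 (edgeR adjusted p = 0.000403). Tnfaip3 encodes A20, a ubiquitin-editing enzyme that shuts off signalling to IKK. It fell from 6.08, 7.22 and 7.75 CPM to 4.51, 4.51 and 4.91 CPM with empty virus and from 7.54, 6.91 and 7.61 CPM to 5.38, 5.57 and 4.01 CPM with Cre, again with no overlap, a log2 change of -0.51 ± 0.11 (edgeR adjusted p = 0.000561). Libraries of the stimulated and unstimulated groups stood apart in this way, all above, for 3 members and 5.72% of the genes tested, and all below for 2 members and 8.94%.

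The cytoplasmic inhibitors did not pass the test in astrocytes. Nfkbia, which encodes IkB-alpha and is the classic feedback target of NF-kB, held 30.4 to 40.3 CPM unstimulated and 29.1 to 38.4 CPM stimulated (-0.10 ± 0.07, edgeR adjusted p = 0.303). Nfkbib, which encodes IkB-beta, held 13.1 to 15.4 CPM unstimulated and 14.8 to 18.7 CPM stimulated (0.15 ± 0.07, edgeR adjusted p = 0.157). Both genes' libraries overlapped, and Nfkbib overlaps Sirt2 and Ccer2 on the opposite strand. The approximate 95% interval of the change was -0.23 to 0.03 for Nfkbia and 0.01 to 0.30 for Nfkbib. Intervals here and below use the SE with a normal multiplier and are narrower than the edgeR test implies. That of Nfkbib lies wholly on the higher side, although its unadjusted edgeR p was 0.0505. With each virus taken alone Nfkb1, Nfkb2 and Bcl3 were higher and Nfkbiz and Tnfaip3 lower, 5 members in each case, where 14.7% of genes were called in either direction with empty virus and 14.3% with Cre. The weakest of those calls with Cre alone were Tnfaip3 (-0.50 ± 0.16, edgeR adjusted p = 0.0241) and Bcl3 (0.63 ± 0.22, edgeR adjusted p = 0.0451), and Bcl3's call with Cre was lost under scaling by library totals (0.0619) and without any 1 of 9 of the 12 libraries (up to 0.124, without replicate 3 of stimulated Cre). Tnfaip3 lost its call with Cre without replicate 1 or 3 of unstimulated Cre or replicate 3 of stimulated Cre (0.0617 to 0.155). With empty virus Tnfaip3 lost it without replicate 2 or 3 of the unstimulated or replicate 1 or 2 of the stimulated group (0.061 to 0.114), and Bcl3 without replicate 3 of the unstimulated group (0.0993). With scaling by library totals the share of higher genes among all calls in the mean response went from 50.5% to 32.3%, and the 5 members kept their direction and their call.

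**Figure D2:**
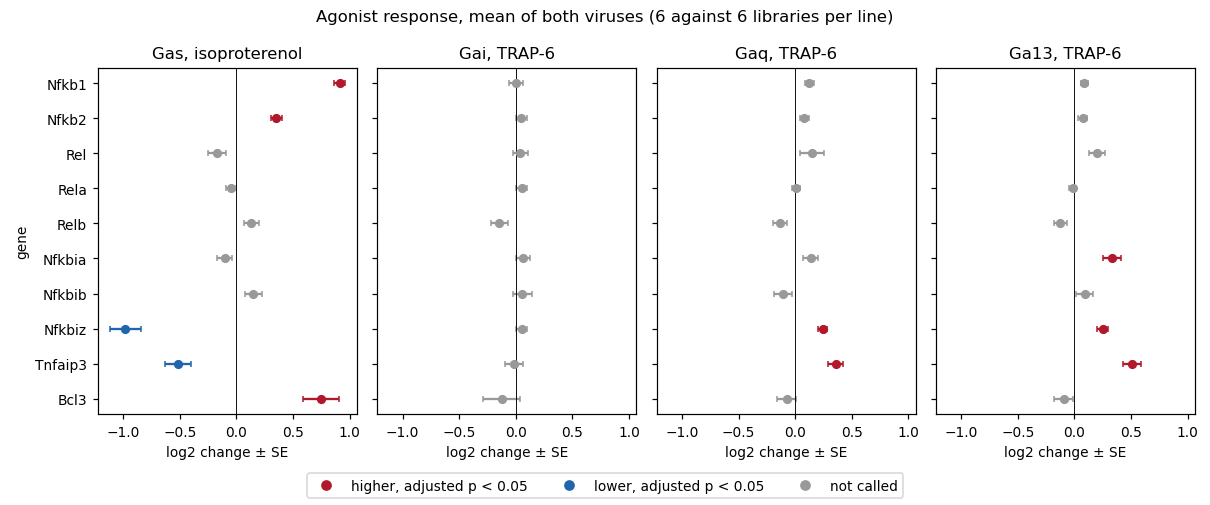
Log2 change with agonist in the mean of both viruses (horizontal axis), with bars for 1 SE, for each gene (vertical axis) in the 4 lines, 6 stimulated against 6 unstimulated libraries in each. Colours mark calls at an edgeR adjusted p under 0.05: Nfkb1, Nfkb2 and Bcl3 lie to the right and Nfkbiz and Tnfaip3 to the left in Gas, and Nfkbiz and Tnfaip3 lie to the right in Gaq and Ga13.

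In fibroblasts the members called with TRAP-6 were all regulators. In Ga13 cells 3 members were higher and none lower, where 4.69% of the 15835 genes tested were higher and 3.69% lower. Tnfaip3 rose from 16.9, 19.1 and 22.6 CPM to 28.9, 21.1 and 26.4 CPM with empty virus and from 14.99, 20.02 and 18.4 CPM to 26.1, 27.3 and 25.7 CPM with Cre. The libraries overlapped with empty virus and not with Cre, and the mean change was 0.51 ± 0.08 (edgeR adjusted p = 8.43e-05). Nfkbiz rose from 58.4, 60.6 and 70.8 CPM to 66.4, 71.5 and 74.1 CPM with empty virus and from 57.2, 60.97 and 67.4 CPM to 67.7, 77.7 and 76.02 CPM with Cre. Its libraries overlapped with empty virus and not with Cre, and it changed by 0.25 ± 0.05 (edgeR adjusted p = 0.00137). Nfkbia rose from 17.9, 13.99 and 17.3 CPM to 17.7, 19.98 and 22.1 CPM with empty virus and from 14.3, 16.6 and 16.5 CPM to 18.1, 17.1 and 23.1 CPM with Cre. Here too the libraries overlapped with empty virus only, and the change was 0.33 ± 0.08 (edgeR adjusted p = 0.00663). The share of all genes that separate with Cre alone was not computed. Over both viruses pooled no member's 6 stimulated libraries stood clear of the 6 unstimulated ones, beside 2.01% of genes all above and 3.57% all below. Rel came closest among the subunits, at 13.96 to 16.8 CPM unstimulated and 14.6 to 18.6 CPM stimulated (0.20 ± 0.07, edgeR adjusted p = 0.0821, and 0.0312 without replicate 2 of the unstimulated Cre group).

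With 1 virus at a time, Tnfaip3 was the only member called in Ga13 cells with empty virus (0.42 ± 0.12, edgeR adjusted p = 0.0388), where 3.88% of genes were called. With Cre, Tnfaip3 (0.60 ± 0.11) and Nfkbiz (0.30 ± 0.07) were called, where 5.37% of genes were. The Tnfaip3 call with empty virus is fragile: it was lost without any of 8 of the 12 libraries (up to an edgeR adjusted p of 0.223, without replicate 1 of the stimulated empty virus group) and under scaling by library totals (0.0727). Without replicate 3 of unstimulated empty virus Nfkbiz was called as well (0.28, edgeR adjusted p = 0.0123). The Nfkbiz call with Cre was lost without replicate 1 or 2 of unstimulated Cre or replicate 2 of stimulated Cre (0.0556 to 0.0601) and in the fit of all 48 libraries (0.121). With Cre, 2 more members were called in other settings. Nfkbia was called with no filter on low counts (0.34, edgeR adjusted p = 0.0158) and without replicate 2 of stimulated Cre (0.43, adjusted p = 0.0271), and Rel without replicate 2 of unstimulated Cre (0.40, adjusted p = 0.0271). An edgeR fit with a replicate block, described in the closing section, also called Nfkbia (adjusted p = 0.0183) and Rel (0.0362) with Cre. With empty virus that fit added Nfkbia (0.0428) and Nfkbiz (0.00846). Scaling by library totals moved the share of higher genes among all calls of the mean response from 55.9% to 32.1%, and the 3 members stayed higher and called.

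In Gaq cells the mean response called Nfkbiz and Tnfaip3, both higher, where 3.78% of the 15528 genes tested were higher and 1.83% lower. Tnfaip3 rose from 26.5, 25.9 and 30.1 CPM to 33.5, 32.4 and 30.8 CPM with empty virus and from 21.1, 27.1 and 29.2 CPM to 32.8, 31.9 and 37.8 CPM with Cre. All 6 stimulated libraries stood above all 6 unstimulated ones, as in 1.38% of genes (1.71% stood all below), and the change was 0.36 ± 0.07 (edgeR adjusted p = 0.000518). Nfkbiz rose from 69.7, 70.7 and 72.4 CPM to 74.9, 70.9 and 77.3 CPM with empty virus and from 58.6, 61.4 and 65.5 CPM to 74.8, 77.4 and 82.4 CPM with Cre. The empty virus libraries overlapped, the Cre libraries did not, and the mean change was 0.24 ± 0.04 (edgeR adjusted p = 4.27e-05, and 0.0774 in a fit of all 48 libraries). Nfkb1 fell just short, at 88.7 to 105 CPM unstimulated and 90.8 to 113 CPM stimulated (0.13 ± 0.04, edgeR adjusted p = 0.0546). Its adjusted p was 0.0469 with no filter on low counts and 0.011 with a replicate block, described in the closing section. Without any 1 of 4 libraries (replicate 1 of stimulated empty virus and stimulated Cre, replicate 2 of unstimulated empty virus and unstimulated Cre) it was 0.0197 to 0.044.

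With empty virus alone no member was called in Gaq cells by edgeR or by DESeq2, where edgeR called 2.65% of genes, and 3 members had an unadjusted p under 0.05. The nearest was Relb, which held 33.2, 30.4 and 35.8 CPM unstimulated and 24.5, 26.4 and 27.9 CPM stimulated, with no overlap (-0.30 ± 0.09, edgeR adjusted p = 0.0582). That p was 0.0232 with no filter on low counts, 0.0276 under scaling by library totals, and 0.0367 and 0.0409 without replicate 2 of unstimulated empty virus and replicate 1 of stimulated Cre. With a replicate block, described in the closing section, it was 0.0174. The share of all genes whose libraries separate as those of Relb did was not computed. With Cre alone Nfkbiz (0.38 ± 0.06, edgeR adjusted p = 1.37e-05) and Tnfaip3 (0.46 ± 0.09, edgeR adjusted p = 0.00254) were called, where 3.37% of genes were. The Nfkbiz call with Cre was lost in the fit of all 48 libraries (0.0578), and that of Tnfaip3 without replicate 1 of the unstimulated Cre group (0.0645). Scaling by library totals moved the share of higher genes among all calls of the mean response from 67.4% to 41.4%, and Nfkbiz and Tnfaip3 stayed higher and called.

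In Gai cells no member was called by edgeR or DESeq2 and none had an unadjusted p under 0.05 in the mean response, where 0.732% of the 15980 genes tested were higher and 0.388% lower. The same held with empty virus (0.119% of genes called) and with Cre (0.238%). Tnfaip3 held 21.4 to 28.3 CPM unstimulated and 21.9 to 27.9 CPM stimulated. Its change was -0.02 ± 0.08, with an approximate 95% interval of -0.17 to 0.14. Nfkbiz, at its highest level of any line here, held 100.3 to 109 CPM unstimulated and 95.8 to 118 CPM stimulated (0.05 ± 0.04, interval -0.04 to 0.14). Nfkbia held 19.4 to 23.3 CPM unstimulated and 20.7 to 24.99 CPM stimulated (0.06 ± 0.06). Over both viruses pooled, the stimulated and unstimulated libraries of all 10 members overlapped, beside 0.839% of genes that stood all above and 0.895% all below. Bcl3 was highest in replicate 1, the first value given, in every Gai group. It held 15.04, 14.2 and 13.3 CPM unstimulated and 15.4, 10.96 and 11.7 CPM stimulated with empty virus. With Cre it held 18.4, 12.6 and 14.4 CPM unstimulated and 19.7, 10.1 and 11.8 CPM stimulated. Scaling by library totals moved the share of higher genes among all calls from 65.4% to 55.2%, with no member called.

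Without replicate 1, 336 genes were higher and 367 lower in the mean response of Gai among 16024 tested, beside 117 and 62 with all libraries. Still no member was called by edgeR or DESeq2 in the mean response, with empty virus (222 genes called) or with Cre (289). The nearest was Bcl3, at -0.29 ± 0.09 in the mean response (edgeR adjusted p = 0.0744), the 1 member with an unadjusted p under 0.05 there. Tnfaip3 then changed by -0.11 ± 0.07 (edgeR adjusted p = 0.515), Nfkbiz by -0.01 ± 0.04 and Nfkbia by -0.02 ± 0.07. With 1 virus, 1 member (Bcl3, empty virus) and 2 members (Bcl3 and Tnfaip3, Cre) had an unadjusted p under 0.05.

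Whether the fibroblast lines differed in their TRAP-6 response was tested in a fit of the 36 fibroblast libraries. Between Ga13 and Gai, 1 member was called, Tnfaip3, whose response was higher in Ga13 by 0.53 ± 0.12 (edgeR adjusted p = 0.0444), where 0.316% of the 16749 genes tested were called. This call was lost without any 1 of 24 of the 36 libraries, with an edgeR adjusted p of up to 0.135, and under scaling by library totals (0.51, adjusted p = 0.0677). Without replicate 1 of the Gai groups, 2 members were called between Ga13 and Gai, Tnfaip3 (0.62 ± 0.13, edgeR adjusted p = 0.00496) and Nfkbiz (0.26 ± 0.07, edgeR adjusted p = 0.0251, against 0.322 with all libraries), and 279 genes in place of 53. DESeq2 called the same 2 members there. An edgeR fit of all 36 libraries with a replicate block by line also called Nfkbiz between Ga13 and Gai (adjusted p = 0.0198). Between Gaq and Gai no member was called by edgeR or DESeq2, 2 had an unadjusted p under 0.05, and 0.137% of genes were called. The differences were 0.38 ± 0.12 for Tnfaip3 (edgeR adjusted p = 0.447, and 0.0236 with no filter on low counts) and 0.19 ± 0.06 for Nfkbiz (edgeR adjusted p = 0.511, and 0.0403 with the replicate block by line). Without the 4 Gai libraries they were 0.47 ± 0.13 for Tnfaip3 (edgeR adjusted p = 0.0828) and 0.25 ± 0.07 for Nfkbiz (edgeR adjusted p = 0.0537), both called by DESeq2, and edgeR called 132 genes in place of 23. Between Ga13 and Gaq no member was called by either tool, none had an unadjusted p under 0.05, and 0% of genes were called by edgeR. There the approximate interval of the difference was -0.09 to 0.38 for Tnfaip3 and -0.12 to 0.13 for Nfkbiz. For Nfkbia, called in Ga13 and not in Gaq, the difference was 0.19 ± 0.10 (edgeR adjusted p = 0.955). Microglia and macrophage marker sums also differed between these lines, as given above, and their part in the differences was not tested.

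The isoproterenol response of astrocytes was set against the mean TRAP-6 response of the 3 fibroblast lines in a fit of all 48 libraries, a comparison added after the data had been seen. It called 8 of the 10 members, 4 higher and 4 lower in astrocytes, where 7.67% of the 19316 genes tested were higher and 7.15% lower. The subunits Nfkb1 (0.84 ± 0.06, edgeR adjusted p = 9.38e-18), Nfkb2 (0.29 ± 0.05) and Relb (0.27 ± 0.08) and the cofactor Bcl3 (0.85 ± 0.17) had the higher response in astrocytes. Nfkbiz (-1.16 ± 0.09, edgeR adjusted p = 9.54e-13), Tnfaip3 (-0.79 ± 0.12), Rel (-0.30 ± 0.10) and Nfkbia (-0.28 ± 0.08) had the lower one. Rela (-0.06 ± 0.05, edgeR adjusted p = 0.496) and Nfkbib (0.14 ± 0.09, edgeR adjusted p = 0.375) did not pass the test. Of Relb, Rel and Nfkbia, only Nfkbia was called in the mean response of a single line, and these 3 calls were also the ones lost on leaving out libraries, Rel without any of 7 (adjusted p up to 0.117), Nfkbia without replicate 3 of the unstimulated empty virus or stimulated Cre astrocytes (0.0504 and 0.0622) and Relb without replicate 2 of the stimulated Cre astrocytes (0.052). Without replicate 1 of the Gai groups 7 members were called, as Rel was not (-0.27 ± 0.10, edgeR adjusted p = 0.0586).

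Between Cre, which switches on the biosensor, and empty virus the main edgeR fit called no member in any line. In astrocytes no member was called by edgeR or DESeq2 in unstimulated cells (0.00552% of genes called), in stimulated cells (0.0166%) or in the difference of the responses (0%), and none had an unadjusted p under 0.05. In Gai no member and no gene was called by edgeR in these 3 comparisons (0% each), and without replicate 1 no member and 14, 8 and 0 genes. Of the members 0, 1 and 1 had an unadjusted p under 0.05 with all 12 libraries, and 0, 2 and 0 without replicate 1. DESeq2 called none in either fit. In Ga13 no member was called by either tool, with 0, 2 and 2 members at an unadjusted p under 0.05, where 0.0126%, 0.0568% and 0.0821% of genes were called by edgeR. In Gaq, where 2.65%, 3.41% and 0.161% of genes were called, no member was, with 3, 1 and 2 members at an unadjusted p under 0.05. The nearest was Nfkbiz in unstimulated Gaq cells, at 69.7, 70.7 and 72.4 CPM with empty virus and 58.6, 61.4 and 65.5 CPM with Cre, which do not overlap. The share of all genes that separate in this way was not computed. Nfkbiz changed by -0.20 ± 0.06 (edgeR adjusted p = 0.0502), DESeq2 called it (adjusted p = 0.0435), and edgeR did without replicate 3 of the unstimulated or stimulated Cre group (0.0438 and 0.0425). An edgeR fit with a replicate block, described in the closing section, called Nfkbiz (adjusted p = 0.013) and Relb (-0.27 ± 0.08, adjusted p = 0.034) in these cells. Over the 120 estimates of this kind (10 members in 12 comparisons) the log2 values ran from -0.38 to 0.33.

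At rest the cell types held the family at different levels. Unstimulated astrocytes with empty virus were set against the mean of the 3 fibroblast lines in the same state, a comparison in which 43.1% of genes were higher and 36.9% lower in astrocytes, so that a call says little by itself. All 10 members were called, Nfkbia higher and the other 9 lower. Without TMM the median of all genes moved from 0.09 to 0.58, and 6 members kept their call and their direction. These were Bcl3 (-2.77 ± 0.18 with TMM and -2.27 without), Tnfaip3 (-2.25 ± 0.12 and -1.75), Nfkbiz (-1.38 ± 0.10 and -0.88), Nfkb2 (-1.08 ± 0.05 and -0.58), Nfkb1 (-0.88 ± 0.06 and -0.39) and Nfkbia (0.36 ± 0.08 and 0.85). Rela (-0.59 ± 0.05 and -0.10) and Relb (-0.65 ± 0.08 and -0.16) lost the call, and Rel (-0.35 ± 0.10 and 0.14) and Nfkbib (-0.37 ± 0.09 and 0.12) lost it and changed sign. Each of the 9 lower members lay below the median of all genes under both scalings. A change of scaling moves all genes by nearly the same amount, so it cannot test a member's place relative to that median. In CPM, Nfkbia held 30.4, 40.02 and 40.3 CPM in these astrocytes and 19.4, 22.7 and 19.9 CPM, 23.1, 25.6 and 26.5 CPM and 17.9, 13.99 and 17.3 CPM in Gai, Gaq and Ga13, so that every astrocyte library stood above every fibroblast library. Bcl3 went the other way, with 2.78, 4.15 and 1.53 CPM against 15.04, 14.2 and 13.3 CPM, 14.8, 16.6 and 13.4 CPM and 10.2, 10.9 and 12.6 CPM. The share of higher genes among all calls went from 53.9% to 72.9% without TMM.

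The other genes of the pathway, taken from 7 lists by role, moved with isoproterenol in astrocytes as follows. Of all genes tested 11.7% were higher and 11.5% lower, and a count near these shares does not set a list apart. Of 11 receptors tested 1 was higher and 3 lower, among them Tnfrsf12a, the receptor for TWEAK (from 199.8 ± 21.1 to 112 ± 4.42 CPM, SD, n = 6, -0.78 ± 0.06), Il1r1, the IL-1 receptor (-0.36 ± 0.07), and Tlr4, the receptor for endotoxin (-0.40 ± 0.09). Of 7 ligands 1 was higher, Il1b (from 0.120 ± 0.0370 to 1.66 ± 0.378 CPM, 3.78 ± 0.36), and 1 lower, Tnf (from 1.60 ± 0.369 to 0.948 ± 0.208 CPM, -0.69 ± 0.24), both scarce transcripts best known from microglia and macrophages. Of the 11 markers of those cells 2 were higher and 1 lower here, their summed levels are given above, and their part was not tested. Of 14 adaptors 2 were higher and 6 lower. Birc2, which encodes the ubiquitin ligase cIAP1, rose (from 26.1 ± 1.26 to 43.8 ± 2.50 CPM, 0.79 ± 0.05), while Traf5 (-1.54 ± 0.16) and Traf3 (-0.24 ± 0.04), adaptors of TNF family receptors, fell. Of 11 IKK and upstream kinases none was higher and 5 lower. These included Map3k14, which encodes NIK, the kinase of the non-canonical pathway (from 21.3 ± 1.87 to 8.80 ± 0.752 CPM, -1.23 ± 0.08, edgeR adjusted p = 5.48e-15), Map3k8 (-1.57 ± 0.17), and Tab2, an adaptor of the kinase TAK1 (-0.26 ± 0.04). The median of this list was -0.07, beside 0.00 for all genes. Of 4 genes of the CARD-BCL10-MALT1 complex, which links some G protein-coupled receptors to IKK, Card10 fell (-1.43 ± 0.19) and the others did not pass the test. Il1b, Traf3 and Traf5 may share reads with overlapping genes.

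Of 16 other inhibitors of the pathway 2 were higher and 3 lower in astrocytes, beside 11.7% higher and 11.5% lower of all genes tested. Nfkbie, which encodes IkB-epsilon, rose from 9.71 ± 0.858 to 30.1 ± 3.33 CPM (1.69 ± 0.08, edgeR adjusted p = 1.03e-19), a larger log2 change than that of any of the 10 members. Zc3h12a, which encodes the RNase regnase-1, fell (-0.51 ± 0.13), as did Otud7b, a deubiquitinase of TRAF3 (-0.15 ± 0.05). Of 24 known NF-kB target genes 11 were higher and 4 lower, with a median of 0.26 beside 0.00 for all genes. Ier3, an early stress gene (from 23.1 ± 2.84 to 125 ± 3.72 CPM, 2.49 ± 0.06), and Ptx3, a secreted pentraxin (from 68.8 ± 4.03 to 108 ± 4.51 CPM, 0.70 ± 0.04), rose, while Irf1, an interferon pathway factor, fell (from 23.8 ± 0.805 to 8.13 ± 0.831 CPM, -1.50 ± 0.07). Ptgs2, which encodes the prostaglandin enzyme COX-2, had the largest log2 change of the list, 3.59 ± 0.10 (from 55.2 ± 9.12 to 645 ± 17.04 CPM), and is named after its values were seen. Many of these genes are also targets of other factors, so the list does not measure NF-kB activity. Ptx3 overlaps Veph1 on the opposite strand.

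In fibroblasts few of these genes were called, and most of those named here were called in both Gaq and Ga13. Of all genes tested 3.78% were higher and 1.83% lower in Gaq, and 4.69% and 3.69% in Ga13. Among the kinases, Map3k14 fell in both Gaq (-0.58 ± 0.09) and Ga13 (-0.62 ± 0.09) and Map3k8, which encodes the MAP kinase kinase kinase TPL2, rose in both (0.51 ± 0.12 and 0.51 ± 0.13), 1 higher and 1 lower of 11 in each line. Malt1, the protease of the CARD-BCL10-MALT1 complex, rose in both (0.36 ± 0.07 and 0.32 ± 0.09), 1 of 6. Among 11 receptors Tlr4 rose (0.19 ± 0.06 and 0.26 ± 0.05) and Tnfrsf1b, the second TNF receptor, fell (-0.15 ± 0.04 and -0.27 ± 0.04). The alarmin gene Il33 was the only ligand called and rose in Gaq, from 11.4 ± 2.51 to 15.4 ± 5.00 CPM (0.45 ± 0.09), and in Ga13, from 9.39 ± 0.918 to 14.7 ± 1.53 CPM (0.69 ± 0.08). The adaptors held no call in Gaq and 1 higher of 13 in Ga13, Traf5 (0.33 ± 0.07). The other inhibitors held none of 16 in Gaq and 1 lower in Ga13, Nfkbie (-0.37 ± 0.12), the gene that rose in astrocytes. Of 20 target genes 1 was higher and 5 lower in Gaq (median -0.08, beside -0.01 for all genes) and 4 higher and 3 lower in Ga13 (median -0.06, beside 0.00). Ptgs2 rose in both (0.46 ± 0.03 and 0.59 ± 0.03) and Bcl2l1, an anti-apoptotic gene, fell in both (-0.27 ± 0.04 and -0.34 ± 0.03), while Lif, a cytokine of the IL-6 family, fell in Gaq (-0.35 ± 0.04) and Ier3 rose in Ga13 (0.21 ± 0.05). In Gai none of the 7 lists held a called gene with all libraries, where 0.732% of all genes were higher and 0.388% lower. With replicates 2 and 3 only, 336 of 16024 genes were higher and 367 lower. Without replicate 1, 1 of 11 kinases (Map3k14, -0.48 ± 0.10, edgeR adjusted p = 0.00175), 1 of 13 adaptors (Irak2, -0.22 ± 0.06) and 1 of 11 receptors (Tnfrsf1b, -0.19 ± 0.05) were lower there, and of 24 target genes 2 were higher (Ptgs2, 0.24 ± 0.03, and Ier3, 0.16 ± 0.05) and 4 lower (Lif, Bcl2l1, Cxcl10 and Csf1). Whether these changes differed between lines was not tested.

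**Figure D3:**
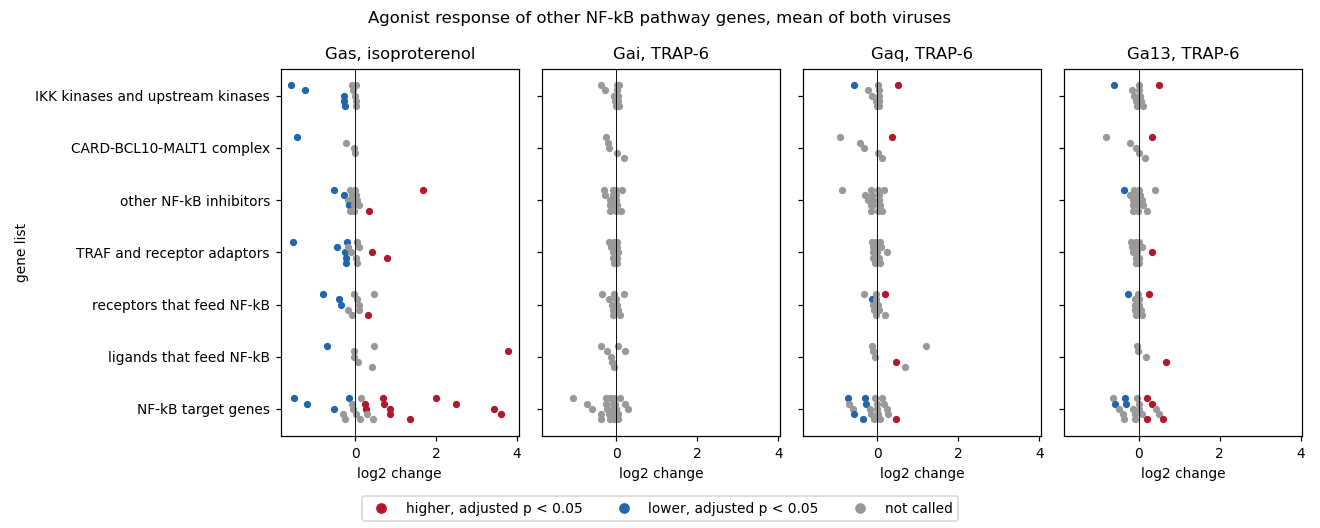
Log2 change with agonist in the mean of both viruses (horizontal axis) for the tested genes of 7 lists of other pathway genes (vertical axis), 1 point per gene, in the 4 lines, with colours for calls at an edgeR adjusted p under 0.05. In Gas the kinases called are all lower (5 of 11) and 11 of 24 target genes are higher, beside 11.5% lower and 11.7% higher of all genes. In Gai no gene of the lists is called with all 12 libraries, which are the ones plotted.

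Nfkbiz and Tnfaip3, the members called in 3 lines, were compared with the 12814 other genes that passed the filter in all 4 lines (gene models named only by Gm or Rik numbers left out), by Pearson's r of log2 CPM over the 16 group means after each line was centred on its own mean. These points share lines and libraries, so r is a description without a p. Closest to Nfkbiz were Npas4, an activity-dependent transcription factor (r = 0.992), Traf5 (r = 0.988) and Tgfb1i1, a focal adhesion protein (r = 0.978). The log2 changes of Npas4 with agonist were -2.06 in Gas, 0.12 in Gai, 0.57 in Gaq and 0.44 in Ga13. Closest to Tnfaip3 were Lmcd1, a LIM domain cofactor (r = 0.962), Tubb6, a beta-tubulin (r = 0.950), and the clock gene Per2 (r = 0.948). Lmcd1 changed by -1.25 in Gas, 0.14 in Gai, 0.60 in Gaq and 0.76 in Ga13, and it overlaps a gene on the opposite strand. Nfkbiz and Tnfaip3 had r = 0.831 with each other.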

How the data were processed

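Raw counts per gene were deposited as 4 tables of 12 libraries, 1 table per line, and were made by the authors with fastp, Subread and featureCounts on GRCm39, per the submitters' processing notes. Tool versions, the annotation and the strand setting are not given in the sources used here, so genes that overlap on either strand may share reads. The tables were read in R 4.3.3 with libraries grouped by their labels, and the 12 libraries of a line were fitted together with 1 mean per group. The test was edgeR 4.0.16 (limma 3.58.1), robust quasi-likelihood, with genes filtered by filterByExpr, TMM scaling and Benjamini-Hochberg adjustment over all genes tested. Differences between fibroblast lines came from a fit of 36 libraries, and comparisons with astrocytes from a fit of 48. The sensor row stayed in the fits and out of gene counts. Library depth, 15606007 to 42564149 counts, sets the counting error. Libraries of a group differed by more than sampling noise in each of the 48 pairs (chi-square per degree of freedom 2.62 to 19.3), so none was counted as a duplicate.

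All members were named in every comparison. From each pathway list and line the called genes of smallest p were named, up to 3, and for members called in 2 or more lines the 3 genes nearest in pattern, with log2 CPM computed with a prior count of 2. The members and lists were chosen with earlier results of these data known. Alternatives were DESeq2 1.42.0 and its size factors, no filter, a replicate block, a fit of all 48 libraries, each library left out, and, added after seeing the data, scaling by library totals and Gai without replicate 1. The replicate numbers were not taken as pairing the libraries, since not every same-numbered pair deviated together. Same-numbered pairs were still more alike in the median than other pairs in every line, and the calls that a replicate block adds are given (closing section). The scripts were tested on simulated data. Promoter sequences and motif shares come from RefSeq (GRCm38.p6), and exon lengths and overlaps from GENCODE M21 (GRCm38), matched by symbol, since a GRCm39 genome was not used here.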

Additional observations from a re-analysis of the deposited data

Results flagged for a closer look

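The Tnfaip3 response to TRAP-6 was higher in Ga13 than in Gai fibroblasts by 0.53 ± 0.12 on the log2 scale (SE, edgeR adjusted p = 0.0444), a tested difference between lines that was lost without any 1 of 24 of the 36 libraries. Without replicate 1 of all 4 Gai groups it was 0.62 ± 0.13 (SE, edgeR adjusted p = 0.00496).

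The responses of astrocytes and of fibroblasts to their agonists differed for 8 members in a test added after the data were seen, in which agonist, cell type, tissue and line cannot be told apart. The isoproterenol response minus the mean TRAP-6 response was 0.84 for Nfkb1, 0.85 for Bcl3, 0.29 for Nfkb2, 0.27 for Relb, -0.28 for Nfkbia, -0.30 for Rel, -0.79 for Tnfaip3 and -1.16 for Nfkbiz. Nfkb1, Nfkb2, Bcl3, Nfkbiz and Tnfaip3 kept the call without any 1 of the 48 libraries. Relb lost it without replicate 2 of the stimulated Cre astrocytes, Nfkbia without replicate 3 of the unstimulated empty virus or the stimulated Cre astrocytes, and Rel without any 1 of 7 astrocyte libraries, and without replicate 1 of the Gai groups (edgeR adjusted p = 0.0586). No group held more than 3 libraries, so no test for outlying libraries was run.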

How the results depend on the processing

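Of the 10 calls of single members in the mean response of a line, all 10 held without any 1 library and 9 in the other settings, and of 15 calls with 1 virus 8 and 11 did. Scaling by library totals gave 0 members in Ga13 with empty virus (1 with TMM), 1 in Gaq with empty virus (0), 0 between Ga13 and Gai (1) and 6 in the level comparison (10), where it reversed Rel to 0.14 and Nfkbib to 0.12, neither called. A fit of all 48 libraries gave 1 member in Gaq in the mean response, 1 with Cre (2 each in the fit by line) and 1 in Ga13 with Cre (2). With no filter on low counts 1 member was called in Gaq with empty virus (0), 2 in Ga13 with empty virus (1) and 1 between Gaq and Gai (0). DESeq2 called 1 for Cre against empty virus in unstimulated Gaq (0). Gai replicates 2 and 3 only gave 2 between Ga13 and Gai (1). The cause was not tested. The share of higher genes among all calls with 1 virus went, from TMM to library totals, from 54.1% to 37.6% (empty virus) and 52.7% to 39.8% (Cre) in Gas, 66.2% to 46.2% and 75.5% to 59.1% in Gaq, and 58.5% to 43.7% and 65.6% to 37.9% in Ga13.

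Replicate numbers were not taken as pairing the libraries, since same-numbered pairs with a correlation over 0.1 were only 1, 9, 0 and 0 of 18 in Gas, Gai, Gaq and Ga13. In Gai they reached 0.368, with a median of 0.0984 against -0.149 for other pairs. The medians were 0.0314 against -0.0158 in Gas, 0.0485 against -0.0211 in Gaq and 0.0468 against -0.0192 in Ga13. In Gas, Gai, Gaq and Ga13, 11, 5, 9 and 11 of 12 libraries correlated best with their own number. The main fit does not model what same-numbered libraries share. The replicate block gave 1 member in Gaq with empty virus, 2 for Cre against empty virus in unstimulated Gaq, 3 in Ga13 with empty virus and 4 with Cre, and by line 1 between Gaq and Gai and 2 between Ga13 and Gai. The members it added, with edgeR adjusted p under the block, were Relb in Gaq with empty virus (0.0174), Nfkbiz (0.013) and Relb (0.034) for Cre against empty virus in unstimulated Gaq, Nfkbia (0.0428) and Nfkbiz (0.00846) in Ga13 with empty virus, Rel (0.0362) and Nfkbia (0.0183) in Ga13 with Cre, and Nfkbiz between Gaq and Gai (0.0403) and Ga13 and Gai (0.0198). In the mean response of Gaq it also called Nfkb1 (0.011, against 0.0546).

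Leaving out 1 library gave 3 to 5 members in Gas with empty virus (3 without unstimulated empty virus replicate 3) and 3 to 5 with Cre (3 without unstimulated Cre replicate 1 or 3 or stimulated Cre replicate 3). It gave 0 to 1 in Gaq with empty virus, 1 to 2 with Cre (1 without unstimulated Cre replicate 1) and 0 to 1 for Cre against empty virus in unstimulated Gaq. It gave 0 to 2 in Ga13 with empty virus, 1 to 2 with Cre (1 without unstimulated Cre replicate 1) and 0 to 1 between Ga13 and Gai.

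Counts over all genes moved by more than 1.5 times in these comparisons. In Gai 179 genes in the mean response became 293 (DESeq2), 445 (no filter), 797 (replicate block) and 403 (48-library fit), 19 with empty virus became 87, 133, 254 and 100, and 38 with Cre became 120, 202, 355 and 127. In Gaq 411 with empty virus became 762 with the block and 230 in the 48-library fit, and Cre against empty virus went from 411 to 752 and 180 unstimulated and from 529 to 944 and 254 stimulated. In Ga13 851 with Cre became 1357 and 552, and 614 with empty virus became 377 in the 48-library fit. Between lines 23 for Gaq minus Gai became 42 (DESeq2), 57 (no filter) and 161 (block), and 53 for Ga13 minus Gai became 96, 121 and 288, while 0 for Ga13 minus Gaq became 2 (no filter) and 7 (block). With Gai replicates 2 and 3 only the Gai counts were 703, 222 and 289, with 14 and 8 (0 and 0) for Cre against empty virus, and those between lines 132 for Gaq minus Gai and 279 for Ga13 minus Gai, and 47.8% of calls in the mean response were higher (65.4%). For the interaction 25 in Gaq became 67 (no filter), 91 (block) and 0 (48-library fit), and 13 in Ga13 became 43 (DESeq2), 86, 138 and 0, and 3 with library totals. Cre against empty virus in Ga13 went from 2 to between 1 (48-library fit) and 33 (block and no filter) unstimulated, and from 9 to between 1 (48-library fit) and 112 (block) stimulated, and the same comparisons in Gas and Gai stayed at 13 or fewer in each planned setting. The block was not run for the level comparison, whose groups are single groups of different lines. Bcl3 in astrocytes, with as few as 32 counts in a library, is the member most limited by depth.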

Other observations

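Relb, the partner of p52, showed a pattern in fibroblasts that was picked out after its values were seen. The main edgeR fit, with all libraries, the filter on low counts and no replicate block, called it in no fibroblast line. With empty virus, the 3 stimulated libraries stood below the 3 unstimulated ones in each of the 3 fibroblast lines. The share of all genes that separate in this way was not computed, so the pattern is a description only. The log2 changes were -0.17 ± 0.10 in Gai (SE, edgeR adjusted p = 0.938), -0.30 ± 0.09 in Gaq (edgeR adjusted p = 0.0582) and -0.23 ± 0.08 in Ga13 (edgeR adjusted p = 0.13). Without replicate 1 of the Gai groups the change in Gai was -0.11 ± 0.10 (edgeR adjusted p = 0.808). In Gaq Relb was called with empty virus under no filter on low counts (edgeR adjusted p = 0.0232), under scaling by library totals (0.0276) and with the replicate block (0.0174). It was also called without replicate 2 of unstimulated empty virus (0.0367) or replicate 1 of stimulated Cre (0.0409). With Cre, the stimulated and unstimulated libraries overlapped in all 3 lines.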
